A study of Homo sapiens with 24 samples.

Results

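The data described here are the transcript levels of the genes that encode the proteasome, its regulators and its assembly factors in 4 human cancer cell lines, before and after hypoxia. The members were taken by symbol, as the genes named PSMA to PSMG followed by a number. Of 23106 genes in the count files, 49 matched. Of these, 48 encode proteasome proteins, and the other, PSMC3IP, encodes a cofactor of meiotic recombination that shares only the start of its name and is described separately. The 48 comprise 7 alpha subunits and 7 beta subunits of the constitutive core, 3 inducible (immunoproteasome) subunits, 2 subunits of germ cells (PSMA8) or thymus (PSMB11), 6 ATPases and 11 non-ATPase subunits of the regulatory particle, 4 activators with 1 inhibitor, and 7 assembly factors. The cells were A549 (lung), HCT-116 (colorectal), PC3 (prostate) and T47D (breast), established cell lines without any genetic change made for the study. Each line was kept either in 21% oxygen (normoxia) or in 0.5% oxygen for 16 h (hypoxia), with 3 libraries of polyadenylated RNA in each of the 8 groups. A549 and PC3 cells shared a medium, whereas HCT-116 and T47D cells each had another, so that line and medium cannot be told apart in comparisons that involve these lines, while the hypoxia comparison was made within each line. Library totals ranged from 22698584 counts (PC3 normoxia 1) to 62850747 counts (A549 hypoxia 1).

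The proteasome degrades proteins that carry ubiquitin chains. Its 20S core is a barrel of stacked rings, with outer alpha rings that gate entry and inner beta rings that hold the proteolytic sites, of which PSMB5, PSMB6 and PSMB7 are the constitutive catalytic subunits. In cells that respond to interferon, PSMB8, PSMB9 and PSMB10 replace them and form the immunoproteasome, which is known for generating peptides for antigen presentation. The 19S regulatory particle binds, unfolds and feeds the substrate, PSME1 to PSME4 encode alternative activators, and PSMG1 to PSMG4 with POMP help to build the core. Transcripts of the constitutive subunits are known to be raised together by the transcription factor NFE2L1 when proteasome activity is short.

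Promoter sequences are shown for 2 alpha subunits that fell together in all 4 lines (PSMA3 and PSMA5) and for PSME4, an activator that rose in A549 cells, so that the elements sought below can be seen in place. The sequences are from RefSeq (GRCh38.p14), 5′ to 3′ on the strand of the gene, from 250 bases before to 50 bases after the transcript start. Capitals mark matches to CCAAT, to GCGTG or to TGACNNNGC on either strand. The windows lie at chr14:58244593-58244892 (plus strand) for PSMA3, chr1:109426399-109426698 (minus strand) for PSMA5 and chr2:53970944-53971243 (minus strand) for PSME4.
PSMA3: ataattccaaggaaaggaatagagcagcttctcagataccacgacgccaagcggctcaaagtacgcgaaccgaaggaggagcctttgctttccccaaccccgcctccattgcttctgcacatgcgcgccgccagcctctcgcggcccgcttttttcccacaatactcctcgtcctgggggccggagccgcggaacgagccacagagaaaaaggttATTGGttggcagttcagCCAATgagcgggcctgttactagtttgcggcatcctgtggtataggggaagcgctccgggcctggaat
PSMA5: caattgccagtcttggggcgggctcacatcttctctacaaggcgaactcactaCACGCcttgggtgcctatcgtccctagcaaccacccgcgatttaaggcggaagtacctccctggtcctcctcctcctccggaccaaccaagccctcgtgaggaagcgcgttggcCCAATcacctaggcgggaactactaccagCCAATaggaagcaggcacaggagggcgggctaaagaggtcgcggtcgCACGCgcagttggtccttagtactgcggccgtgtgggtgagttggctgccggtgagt
PSME4: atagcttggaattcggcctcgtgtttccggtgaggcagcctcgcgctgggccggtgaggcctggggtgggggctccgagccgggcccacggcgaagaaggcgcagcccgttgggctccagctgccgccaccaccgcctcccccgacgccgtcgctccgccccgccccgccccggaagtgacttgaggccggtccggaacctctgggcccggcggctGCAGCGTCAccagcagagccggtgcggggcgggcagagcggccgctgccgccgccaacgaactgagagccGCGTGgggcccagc

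PSMA3 carried a CCAAT box in each orientation and no match to the other motifs, PSMA5 carried 2 CCAAT boxes and 2 matches to GCGTG, and PSME4 carried 1 match to TGACNNNGC and 1 to GCGTG. PSMA4, which also fell in all 4 lines, is not shown. Of its 3 windows, that at chr15:78540155-78540454 (plus strand) had no match to the motifs. A window was found for 42 of the 48 members, and not for PSMG3. TGACNNNGC, the core of the antioxidant response element to which NFE2L1 binds, was present in 15 of the 42 (35.7%) and in 16.1% of all 27305 genes with a window. Its 15 holders included PSMC4, PSMD1, PSMD12, PSME4 and PSMG1, but only 1 of the 6 alpha subunits with a window (PSMA4, in 1 of its 3 windows). The hypoxia response element cores ACGTG and GCGTG were present in 21.4% and 42.9% of the members, against 24.9% and 40.6% of all genes. CCAAT was present in 47.6% of the members and in 39.7% of all genes, including 4 of the 6 alpha subunits (PSMA2, PSMA3, PSMA4 and PSMA5). The motifs were sought on both strands and separately, so that matches of different motifs could share bases, and they are letter matches, not binding sites.

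The oxygen labels were checked with 6 genes induced by hypoxia-inducible factor (CA9, NDRG1, EGLN3, ANKRD37, VEGFA and PDK1), and all 6 rose in A549, HCT-116 and T47D cells. In PC3 cells 5 of 6 rose, and PDK1 had a log2 fold change of 0.11 ± 0.12 (SE, adjusted p = 0.496). CA9, the carbonic anhydrase most used as a hypoxia marker, rose by 8.40 ± 0.29 (log2, SE) in A549 cells and by 1.81 ± 0.21 in PC3 cells. The tissue markers were retained in part. The 4 breast markers (ESR1, PGR, GATA3 and TFF1) summed to 1511 CPM (counts scaled to the library total) ± 212 (SD, n = 3) in normoxic T47D cells and to at most 39.7 CPM in the other normoxic groups. PC3 cells expressed HOXB13 (75.1 CPM) but had at most 3 counts of KLK3 in any library. HCT-116 cells expressed CDX2 (11.8 CPM), with the other 3 colon markers near 0, and CDH17 was at 14.6 CPM in A549 cells. In A549 cells the 4 lung markers (NKX2-1, SFTPB, SFTPC and NAPSA) summed to only 0.504 CPM in normoxia. Their sum was higher in HCT-116 cells, at 1.99 CPM in normoxia and 2.69 CPM in hypoxia, where NKX2-1 was at 2.33 CPM. The 5 leukocyte markers summed to at most 3.33 CPM in any group (mostly CD14 in A549 cells), and CD3E had at most 4 counts in any library.

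One feature of the libraries moved with the proteasome genes. Short transcripts were lower, relative to long ones, in most hypoxic libraries. Among all genes tested, those with transcripts under 1200 bases had a median log2 fold change of -0.16 in A549, -0.74 in HCT-116, -0.25 in PC3 and -0.27 in T47D cells, whereas those of 4000 bases or more had 0.11, 0.22, 0.10 and 0.059. The balance also differed among replicates. Relative to the normoxic mean of the line, the short minus long difference was -0.621 and -0.72 (log2) in T47D hypoxia 1 and 2 but 0.351 in T47D hypoxia 3. It was 0.433 in HCT-116 normoxia 2 and 0.346 in PC3 normoxia 3, the highest libraries of those lines. The transcripts of the alpha subunits had a median length of 1195 bases (955 to 4378) and a median GC content of 41.4% (37.9 to 51.9%), with PSMA4 (4378 bases) and PSMA5 (3815 bases) far longer than the others. Those of the beta subunits had medians of 918 bases and 52.0%. The source of the length difference was not tested. Values after the GC content and the length of the transcript were corrected for, called the correction below, are given beside the others for the tests within each line. The fits across lines were made without it.

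**Figure D1:**
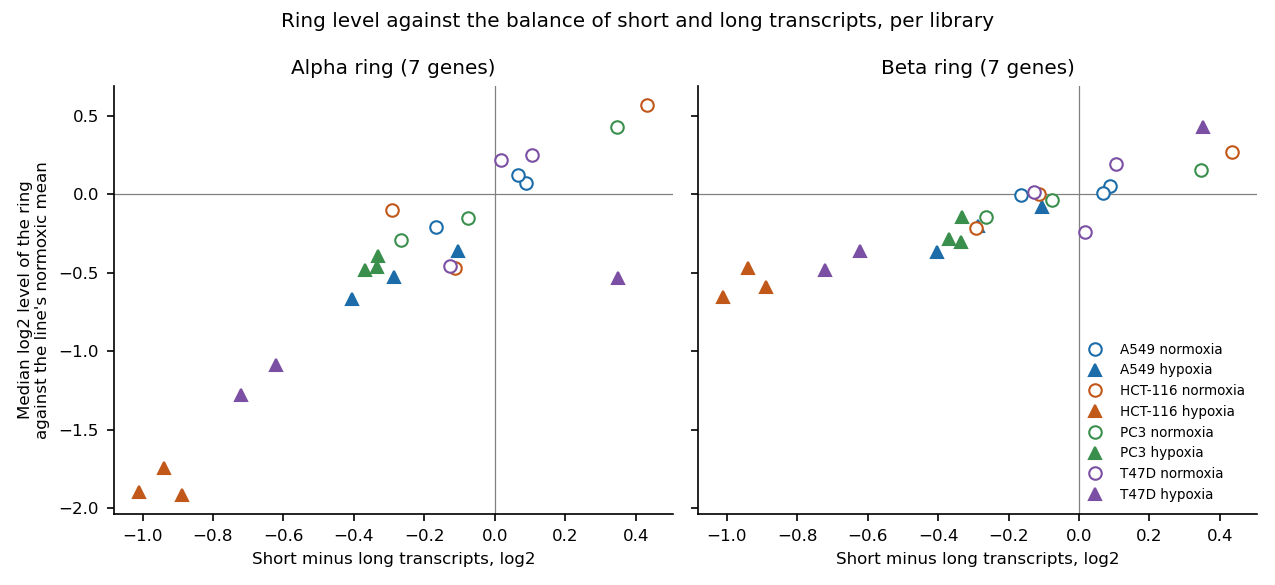
Median log2 level of the 7 alpha (left) and 7 beta (right) core subunits in each of the 24 libraries, against the short (under 1200 bases) minus long (4000 bases or more) transcript difference of the same library, both relative to the normoxic mean of the line; open circles are normoxia and filled triangles hypoxia. The HCT-116 hypoxia libraries have the lowest alpha medians (-1.91 to -1.74) and the lowest short minus long differences, and T47D hypoxia 3 (alpha median -0.53, difference 0.351) lies close to T47D normoxia 3 (-0.46 and -0.127) in its alpha median.

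The first question was how many members changed in hypoxia in each line. In edgeR's quasi-likelihood test, where a call needed an adjusted p below 0.05 together with a change of more than 1.2-fold, 23 of 44 members tested fell and 1 rose in A549 cells, where 17.8% of all genes fell and 17.6% rose. In HCT-116 cells 27 of 45 fell and 2 rose (all genes, 27.0% and 23.3%). In PC3 cells 13 of 44 fell and 0 rose (15.7% and 16.6%), with 2 rises by DESeq2 and 2 at an unadjusted p under 0.05. In T47D cells 6 of 44 fell and 0 rose (6.69% and 6.55%), with 0 rises by DESeq2 and 0 at an unadjusted p under 0.05. The median log2 fold changes of the members were -0.33, -0.72, -0.24 and -0.30, against medians of all genes between -0.026 and -0.011. More members had a negative value than were called, at 40 of 44, 33 of 45, 37 of 44 and 38 of 44, with values near 0 included and no test made of these counts. The 3 members that passed the filter in no line were PSMB8, PSMA8 and PSMB11, and PSMB9 passed the filter on low counts only in HCT-116 cells. Scaling to total counts in place of TMM moved the median of all genes to -0.13 in A549 and -0.12 in T47D cells, and turned the calls over all genes from 2452 up and 2476 down to 1778 and 3461 in A549 cells and from 922 and 942 to 666 and 1412 in T47D cells.

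These counts depended on single libraries and on the GC and length correction. In T47D cells, 19 members fell without hypoxia 3 but 2 without hypoxia 1 or hypoxia 2 and 0 without normoxia 1 or normoxia 2. The share of all genes that fell moved with it, to 12.2%, 2.54%, 3.44%, 0.133% and 0.597% in the same order. In PC3 cells, the count was 22 without normoxia 2 but between 3 and 8 without any other library, with 20.1% of all genes down without normoxia 2 and 6.46% without hypoxia 2. In A549 cells, it was 13 without hypoxia 1 or normoxia 1, 11 without hypoxia 2, 14 without normoxia 2 and 24 without hypoxia 3 or normoxia 3, with 10.9% of all genes down without hypoxia 2 and 18.6% without normoxia 3. In HCT-116 cells it was 18 without hypoxia 3, with 19.7% of all genes down. With the correction, 9, 14, 4 and 5 members fell in A549, HCT-116, PC3 and T47D cells, or 20.5%, 31.1%, 9.09% and 11.4% of those tested, where 14.7%, 21.6%, 11.4% and 6.27% of all genes fell. No label pairs the samples, but same-numbered T47D libraries deviated together. With the replicate block, the correction gave 8 members down in T47D cells (18.2%, and 13.5% of all genes). With coding length in place of transcript length, a setting added after the data were seen, 22 of 44, 22 of 45, 10 of 44 (22.7%) and 9 of 44 members fell, against 16.9%, 23.5%, 12.99% and 7.57% of all genes. In PC3 cells the share of the members was thus below that of all genes with transcript length in the correction and above it with coding length. With transcript length, the medians of the members were -0.11, -0.18, -0.030 and -0.15. The labels do not say that replicates are separate cultures, so the p-values measure only the spread between these libraries. In these bulk samples, fewer transcripts per cell and a different share of total RNA cannot be told apart.

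**Figure D2:**
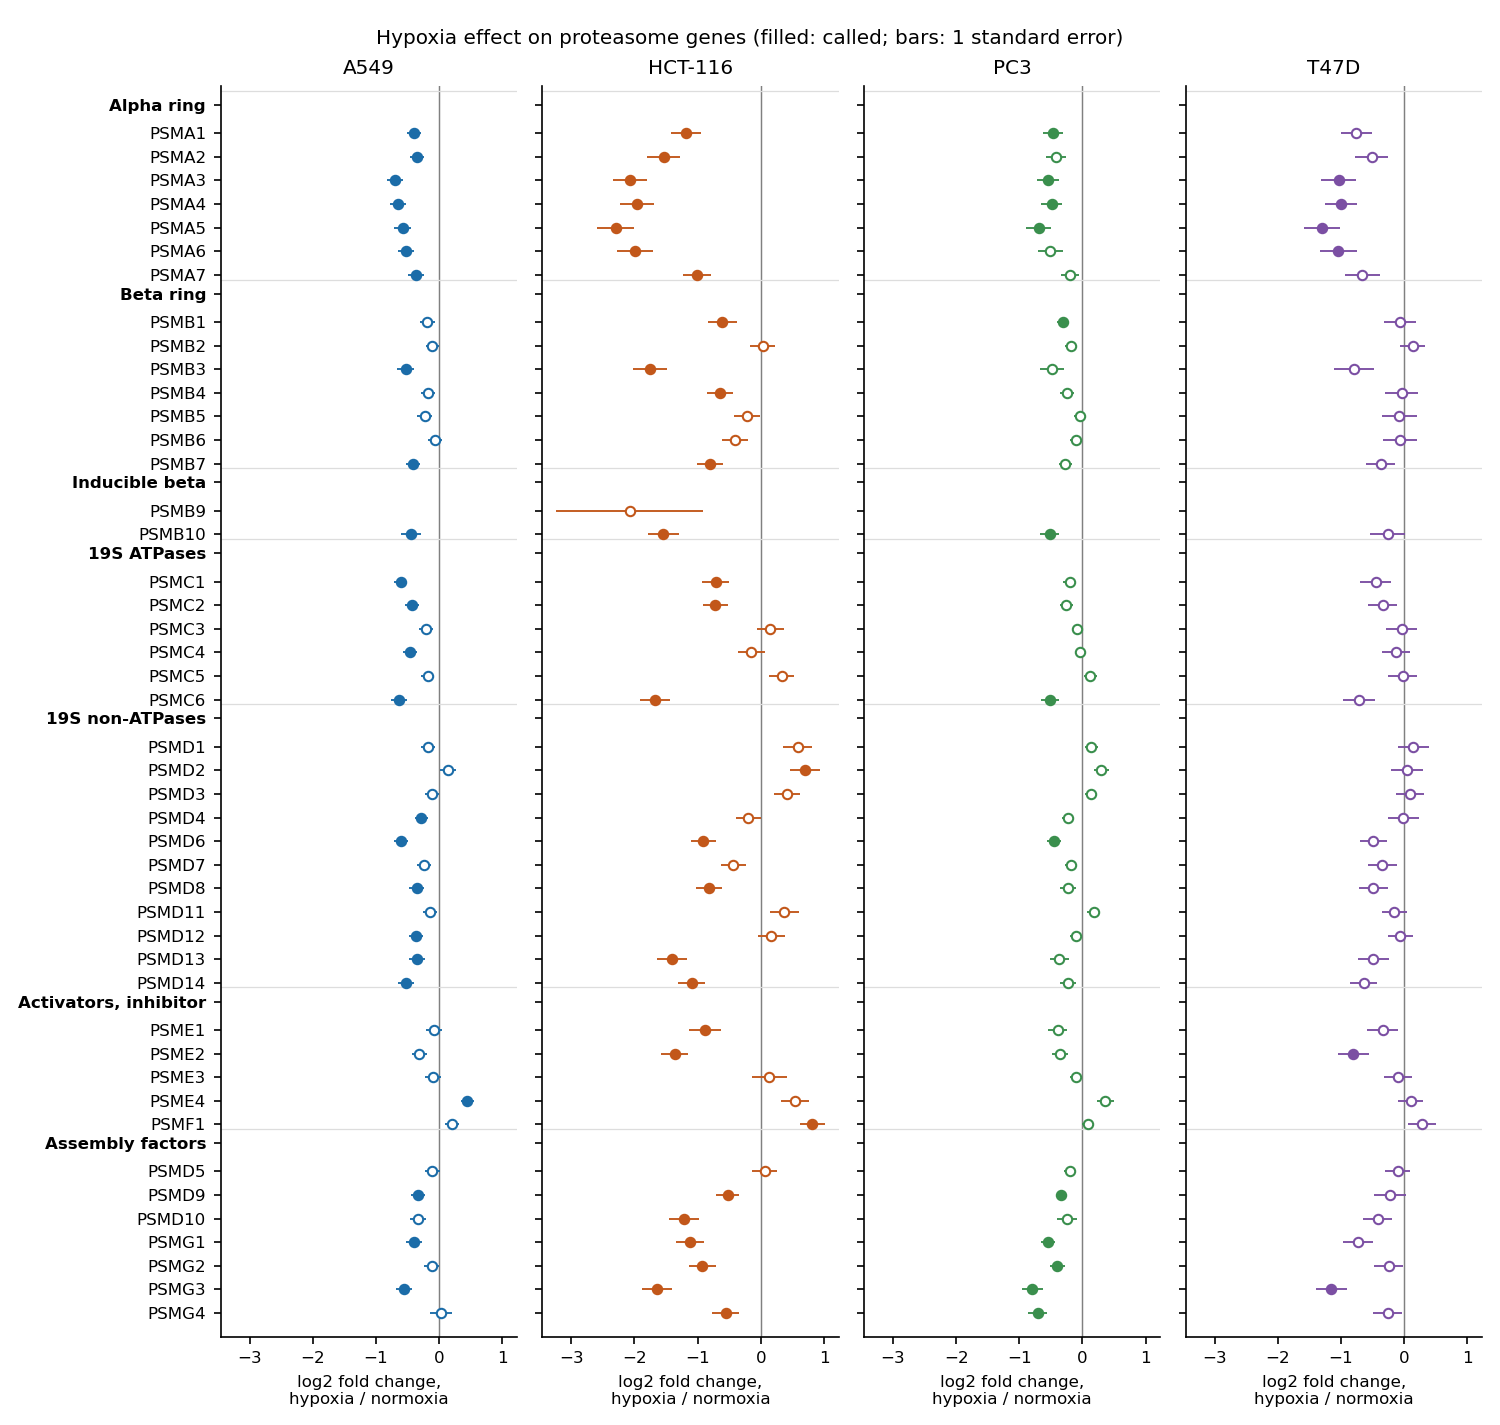
Log2 fold change (hypoxia over normoxia, horizontal axis; bars, 1 SE) of each tested member in the 4 lines, grouped by its place in the proteasome; filled points were called. The alpha ring lies left of 0 in every line and furthest in HCT-116 cells (median -1.95), while points right of 0 are mostly non-ATPase subunits, PSME4 and PSMF1.

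The alpha subunits had a negative median log2 fold change in every line, but not all of them were called. All 7 subunits fell in A549 and in HCT-116 cells, and 4 of 7 fell in PC3 and in T47D cells, with median log2 fold changes of -0.52, -1.95, -0.48 and -0.998. The shares of all genes that fell were 17.8%, 27.0%, 15.7% and 6.69%. The 3 subunits that missed the threshold in PC3 cells were PSMA2, PSMA6 and PSMA7, and in T47D cells PSMA1, PSMA2 and PSMA7. DESeq2 and total counts called PSMA2 and PSMA6 down in PC3 cells and PSMA1 in T47D cells. Every value was negative in every line. PSMA3, PSMA4 and PSMA5 fell in all 4 lines. In A549 cells 4 alpha subunits were called without hypoxia 1, hypoxia 2, normoxia 1 or normoxia 2, and 7 without either library numbered 3. In PC3 cells no alpha subunit was called when any 1 of the hypoxic libraries was left out, 1 without normoxia 1 and 2 without normoxia 3, against 6 without normoxia 2. In T47D cells 0 were called without normoxia 1 or normoxia 2 and 1 without hypoxia 1 or hypoxia 2, against 7 without hypoxia 3. With the GC and length correction, 1, 5, 0 and 2 of the 7 fell, with medians of -0.21, -0.79, -0.0084 and -0.51, where 14.7%, 21.6%, 11.4% and 6.27% of all genes fell. The share in A549 cells was thus near that of all genes. With coding length in the correction, 4, 7, 0 and 5 of the 7 fell (all genes, 16.9%, 23.5%, 12.99% and 7.57%). One fit of the 24 libraries called 2, 7, 0 and 6 of them down (all genes, 7.35%, 22.9%, 2.64% and 9.94%).

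PSMA5 (alpha 5; chromosome 1, 109941664 to 109969070 in GRCh37, minus strand) had the largest decrease of any member in HCT-116 and T47D cells. Its level was 626, 1048 and 500.0 CPM in the normoxic and 189, 146 and 150.5 CPM in the hypoxic HCT-116 libraries. Its log2 fold change there was -2.29 ± 0.29 (SE, adjusted p = 0.000128), and the groups were far apart. In T47D cells its levels were 241, 244 and 141 CPM in normoxia and 79.0, 71.2 and 119 CPM in hypoxia, and the change was -1.30 ± 0.28 (SE, adjusted p = 0.0129). The replicates numbered 3 lay closest to each other, without overlap. In A549 cells its levels were 193, 200.001 and 148 CPM and then 108, 124 and 131 CPM, a change of -0.58 ± 0.13 (SE, adjusted p = 0.00574). In PC3 cells its levels were 182, 162 and 295 CPM and then 135, 137 and 140.3 CPM, a change of -0.69 ± 0.20 (SE, adjusted p = 0.0268). The groups did not overlap in any line, and most of the spread in PC3 cells came from normoxia 3. With the correction the decrease was called in HCT-116 (-1.63, adjusted p = 0.000526) and T47D cells (-0.97, adjusted p = 0.039) but not in A549 (adjusted p = 0.0572) or PC3 cells (adjusted p = 0.108).

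PSMA3 (alpha 7; chromosome 14, 58711561 to 58738730, plus strand) had the largest decrease in A549 cells. Its levels were 182, 201 and 154 CPM in the normoxic and 100.4, 110.2 and 122 CPM in the hypoxic A549 libraries, with a log2 fold change of -0.70 ± 0.12 (SE, adjusted p = 0.00156). In HCT-116 cells it went from 442, 681 and 358 CPM to 148, 113 and 126 CPM, a change of -2.07 ± 0.27 (SE, adjusted p = 0.000139). In T47D cells it went from 285, 302 and 193 CPM to 119, 102 and 184 CPM (-1.03 ± 0.28 SE, adjusted p = 0.0293). In PC3 cells it went from 415, 344 and 566 CPM to 333, 311 and 299 CPM (-0.55 ± 0.17 SE, adjusted p = 0.0344). All hypoxic libraries were below all normoxic libraries of their line, narrowly in T47D and PC3 cells. Genes on the other strand, ARMH4 and PSMA3-AS1, overlap it, and the strand setting of the counting was not given in the sources used here, so reads of the opposite strand cannot be told apart. With the correction, PSMA3 was called down only in HCT-116 cells (-0.79, adjusted p = 0.011).

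PSMA4 (alpha 3; chromosome 15, 78832747 to 78844759, plus strand) has no annotated overlapping gene or pseudogene copy. Its levels were 424, 425 and 339 CPM in the normoxic and 235, 253 and 271 CPM in the hypoxic A549 libraries, a log2 fold change of -0.65 ± 0.12 (SE, adjusted p = 0.00185). In HCT-116 cells it went from 723, 1170.1 and 627 CPM to 262, 219 and 231 CPM (-1.95 ± 0.27 SE, adjusted p = 0.000165). In T47D cells it went from 389, 382 and 263 CPM to 169, 149.9 and 229.5 CPM (-0.998 ± 0.26 SE, adjusted p = 0.0252). The groups did not overlap in these lines, and the HCT-116 difference was the largest. In PC3 cells, where PSMA4 was least abundant, the levels were 157, 147 and 232 CPM and 137, 132 and 130.1 CPM (-0.48 ± 0.17 SE, adjusted p = 0.0495). With the correction, which takes the length of its long canonical transcript (4378 bases), PSMA4 was called down in A549, HCT-116 and T47D cells but not in PC3 cells (adjusted p = 0.118).

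**Figure D3:**
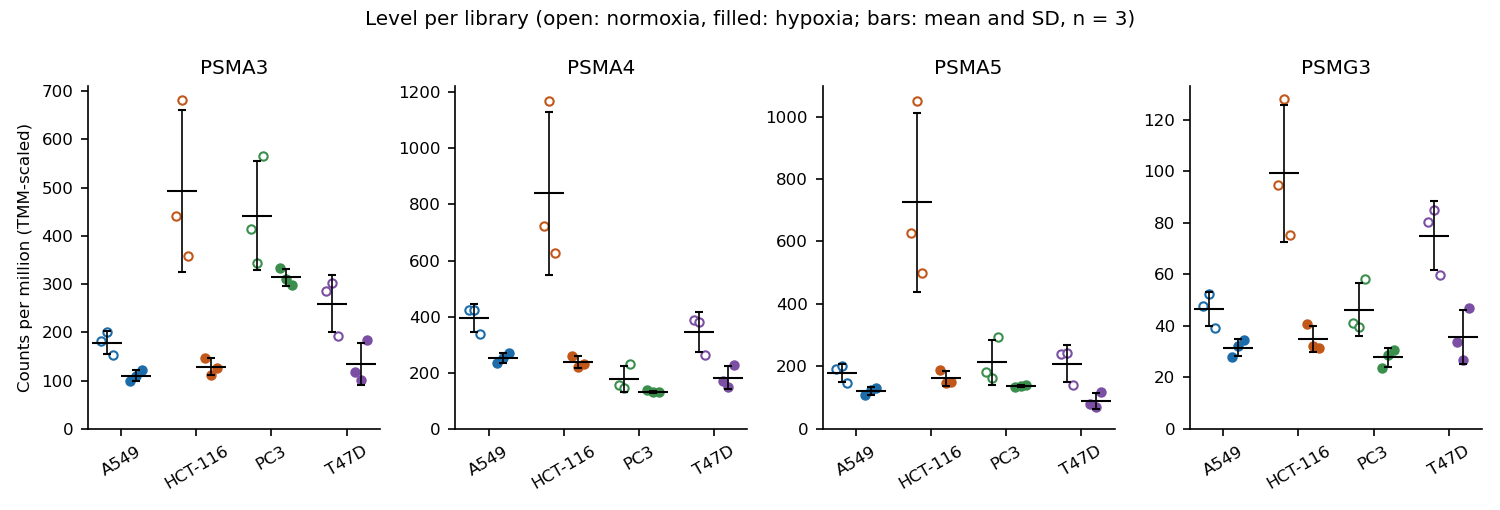
Level (TMM-scaled CPM, vertical axes from 0) of the 4 members that fell in all 4 lines, in each library; open points are normoxia, filled points hypoxia, and black bars the mean and SD (n = 3). The hypoxic points lie below the normoxic points of the same line in each panel, with the widest gap in HCT-116 cells.

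PSMA6 (alpha 1) fell in A549 (-0.52), HCT-116 (-1.99) and T47D cells (-1.05). Its levels were 483, 816 and 366 CPM in the normoxic and 164, 155 and 141 CPM in the hypoxic HCT-116 libraries, well apart. In T47D cells they were 594, 641 and 359.5 CPM and 248, 211 and 361 CPM, and hypoxia 3 overlapped normoxia 3. It has 4 annotated pseudogene copies, and reads without a unique position had been removed, so its counts are uncertain. PSMA7 (alpha 4), the alpha subunit with the highest GC content (51.9%), had the value nearest to 0 in HCT-116 (-1.01) and PC3 cells (-0.19), and in A549 cells it was called (-0.37) although normoxia 3 (346 CPM) and hypoxia 3 (346 CPM) met.

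Fewer beta than alpha subunits were called without the correction, a difference that was not tested. Of 7 constitutive beta subunits, 2 fell in A549 cells (PSMB3 and PSMB7), 4 in HCT-116 cells (PSMB1, PSMB3, PSMB4 and PSMB7), 1 in PC3 cells (PSMB1) and 0 in T47D cells, with median log2 fold changes of -0.18, -0.61, -0.24 and -0.064. The shares of all genes that fell were 17.8%, 27.0%, 15.7% and 6.69%, so the beta subunits in PC3 cells were near the share of all genes. By DESeq2, 0 beta subunits fell in T47D cells, and at an unadjusted p under 0.05 the count in T47D cells was 1. With the correction, 1, 1, 0 and 0 beta subunits fell in A549, HCT-116, PC3 and T47D cells, against 1, 5, 0 and 2 alpha subunits. PSMB3, a structural subunit, had the largest decrease of the beta subunits. Its levels were 579, 1002 and 572 CPM in the normoxic and 262, 231 and 206 CPM in the hypoxic HCT-116 libraries (-1.75 ± 0.26 SE, adjusted p = 0.000234), which did not overlap. It remained called down with the correction in A549 (-0.38) and HCT-116 cells (-1.10), the only beta subunit that did. PSMB2, another structural subunit, had values between -0.19 (PC3) and 0.14 (T47D), none called, although with coding length in the correction it was called up in HCT-116 cells (0.52).

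The constitutive catalytic subunits PSMB5 (chymotrypsin-like activity) and PSMB6 (caspase-like activity) were not called in any line in edgeR's test with TMM factors. PSMB5 was called down in A549 cells with total counts and with coding length in the correction (-0.28, adjusted p = 0.0305). PSMB5 levels were 219, 219.9 and 219 CPM in the normoxic and 163, 191 and 209.6 CPM in the hypoxic A549 libraries, without overlap. PSMB5 had log2 fold changes of -0.23 ± 0.11 (SE) in A549, -0.21 ± 0.21 in HCT-116, -0.040 ± 0.093 in PC3 and -0.075 ± 0.28 in T47D cells. PSMB6 had its lowest value in HCT-116 cells, with 158, 229 and 209 CPM in the normoxic and 187, 155 and 147 CPM in the hypoxic HCT-116 libraries (-0.41 ± 0.21 SE, adjusted p = 0.115), and the groups overlapped. PSMB7 (trypsin-like activity) fell in HCT-116 cells, from 200.3, 302 and 257 CPM to 163, 158 and 153 CPM (-0.80 ± 0.21 SE, adjusted p = 0.00607), and in A549 cells (-0.42 ± 0.11 SE, adjusted p = 0.0109). Both PSMB7 calls were lost with the correction (-0.22 and -0.23).

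PSMB10, the inducible counterpart of PSMB7, fell in 3 lines. Its levels were 29.0, 34.2 and 24.8 CPM in the normoxic and 14.2, 8.46 and 10.2 CPM in the hypoxic HCT-116 libraries, without overlap, a log2 fold change of -1.54 ± 0.24 (SE, adjusted p = 0.000286). It fell in A549 (-0.44 ± 0.15 SE, adjusted p = 0.0398) and PC3 cells (-0.52 ± 0.15 SE, adjusted p = 0.0237), and had -0.26 ± 0.28 in T47D cells (adjusted p = 0.562). With the correction it remained called in the same 3 lines (-0.45, -1.33 and -0.50). Per kilobase of transcript, PSMB10 made up 10.6% ± 1.96 (SD, n = 3) of PSMB7 and PSMB10 together in normoxic HCT-116 cells and 6.49% ± 1.5 in hypoxic ones. The shares were 7.56% ± 0.906 and 7.39% ± 0.60 in A549, 8.10% ± 0.657 and 6.96% ± 0.667 in PC3, and 3.71% ± 0.146 and 3.88% ± 0.584 in T47D cells. Only in HCT-116 cells did the normoxic (8.85 to 12.7%) and hypoxic libraries (5.11 to 8.09%) lie apart among shares that were not compared by a test.

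PSMB8 and PSMB9 could not be assessed. PSMB8 had 0 counts in 23 of 24 libraries and 1 in the other, and 3 counts correspond to between 0.0477 and 0.132 CPM. PSMB9 had 0 to 55 counts, and its highest levels were 1.23 CPM in HCT-116 normoxia 2 and 0.786 CPM in T47D hypoxia 3. In HCT-116 cells, where it was tested, the change was -2.08 ± 1.17 (SE, adjusted p = 0.154) with overlapping libraries, although PSMB9 was called down there with the replicate block. Both genes lie in the classical major histocompatibility (MHC) region of chromosome 6, where 89 of 132 protein-coding genes (67.4%) averaged under 1 CPM, against 34.8% on the rest of the chromosome and 32.3% elsewhere. Counts of genes there that most cells express were also low in many libraries. RING1 had at most 3 counts in 15 of 24 libraries and FLOT1 in 17, and the peptide transporter subunit TAP1 had 0 counts in 21, whereas its partner TAP2 had a median of 157 counts and BAG6 of 82. These genes were picked after their values were seen. A low count in this region therefore does not show a low transcript level, and the reason was not tested. PSMB10, on chromosome 16, is outside the region.

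Among the 6 ATPases of the regulatory particle, which unfold substrates, 4 fell in A549 cells (PSMC1, PSMC2, PSMC4 and PSMC6), 3 in HCT-116 cells (PSMC1, PSMC2 and PSMC6), 1 in PC3 cells (PSMC6) and 0 in T47D cells, where DESeq2 called 1 and an unadjusted p under 0.05 was reached by 1. The shares of all genes that fell were 17.8%, 27.0%, 15.7% and 6.69% in the same order, so the ATPases in PC3 cells were near the share of all genes. PSMC6 had the lowest value among the ATPases in each line. Its levels were 129, 152 and 113 CPM in the normoxic and 80.5, 80.6 and 93.7 CPM in the hypoxic A549 libraries (-0.64 ± 0.13 SE, adjusted p = 0.00277), and in HCT-116 cells 184, 273 and 159 CPM and 72.2, 72.5 and 67.0 CPM (-1.67 ± 0.23 SE, adjusted p = 0.000178). The groups were apart in both. PSMC6 has the lowest GC content of the members tested (36.4%), and with the correction it was called in HCT-116 cells (-0.51) but not in A549 (-0.16) or PC3 cells (-0.0086). With the correction, 2, 2, 0 and 0 ATPases fell in A549, HCT-116, PC3 and T47D cells, where 14.7%, 21.6%, 11.4% and 6.27% of all genes fell. PSMC4 kept its call in A549 cells. PSMC1 remained called in A549 (-0.68) and HCT-116 cells (-1.01), but it has 13 annotated pseudogene copies and its counts are uncertain. PSMC3 and PSMC5 had values from -0.21 to 0.33 and were not called without a correction and with TMM factors. In A549 cells both were called down with total counts and with coding length in the correction (-0.33 and -0.27), and in HCT-116 cells PSMC5 was called up with transcript length in it (0.58).

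Of the 11 non-ATPase subunits, 6 fell in A549 cells, 4 fell and 1 rose in HCT-116 cells, 1 fell in PC3 cells and 0 in T47D cells (1 by DESeq2 and 2 at an unadjusted p under 0.05). Among all genes, 17.8%, 27.0%, 15.7% and 6.69% fell in these lines, and 23.3% rose in HCT-116 cells. The share of these subunits that fell in PC3 cells was thus below that of all genes. PSMD6, a lid subunit, fell in A549 (-0.60), HCT-116 (-0.91) and PC3 cells (-0.45). PSMD14, the deubiquitinase that removes ubiquitin chains from substrates, fell in A549 (-0.52) and HCT-116 cells (-1.10), and in T47D cells (-0.64, adjusted p = 0.0649) it was called with the replicate block (adjusted p = 0.0412), by DESeq2 and with total counts. With the correction, neither call of PSMD14 was kept, and PSMD6 kept that in A549 cells. PSMD13 fell in HCT-116 cells from 502, 739.5 and 488 CPM to 269, 235 and 209.9 CPM (-1.40 ± 0.24 SE, adjusted p = 0.000441), without overlap. PSMD1 and PSMD2, the scaffold subunits of the base, had positive values in HCT-116 cells. PSMD2 rose there, from 337, 250.4 and 487 CPM to 697, 564 and 616 CPM (0.70 ± 0.24 SE, adjusted p = 0.028), and PSMD1 had 0.58 ± 0.23 (adjusted p = 0.0507). DESeq2 called PSMD1 up in HCT-116 cells (adjusted p = 0.0219) and PSMD2 up in PC3 cells (adjusted p = 0.0381). Their transcripts, of 3323 bases (PSMD1) and 2913 bases (PSMD2), belong to neither the short nor the long class. With the correction in HCT-116 cells PSMD2 was no longer called (0.46), whereas PSMD1 (0.73) and PSMD12 (0.77) were called up. With the correction, 2, 2, 0 and 1 non-ATPase subunits were called down in A549, HCT-116, PC3 and T47D cells, where 14.7%, 21.6%, 11.4% and 6.27% of all genes fell. PSMD8 was among these subunits in A549, HCT-116 and T47D cells.

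The activators and the inhibitor went in different directions. PSME4, which encodes the nuclear activator PA200, rose in A549 cells from 127, 119.6 and 141 CPM to 169.5, 179 and 181 CPM (0.44 ± 0.10 SE, adjusted p = 0.00676), without overlap, and remained called with the correction (0.36). Its level was also higher in all hypoxic than in all normoxic libraries of HCT-116 cells, at 89.9, 53.0 and 83.9 CPM against 137, 109 and 114 CPM, but the test missed the threshold (0.55 ± 0.22 SE, adjusted p = 0.0537). In PC3 cells it had 0.36 ± 0.13 (SE, adjusted p = 0.0599). DESeq2 called PSME4 up in both of these lines (adjusted p = 0.0289 and 0.0366). PSMF1, which encodes the inhibitor PI31, rose in HCT-116 cells from 81.9, 56.4 and 81.0 CPM to 155, 130.2 and 134 CPM (0.82 ± 0.20 SE, adjusted p = 0.00475). It has the longest transcript of the members (8154 bases), and with the correction its value was 0.17 (adjusted p = 0.408).

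PSME1 and PSME2, the interferon-inducible subunits of the PA28 activator, fell in HCT-116 cells. PSME2 went from 85.2, 144 and 112 CPM to 49.7, 49.4 and 45.6 CPM (-1.36 ± 0.21 SE, adjusted p = 0.000299), and PSME1 from 142, 262 and 190.4 CPM to 91.8, 147 and 111 CPM (-0.89 ± 0.25 SE, adjusted p = 0.0103), with an overlap for PSME1 only. PSME2 also fell in T47D cells (-0.80 ± 0.25 SE, adjusted p = 0.0488), and both of its calls remained with the correction, while that of PSME1 did not. In PC3 cells PSME2 had -0.35 ± 0.13 (SE, adjusted p = 0.0576). It was called down there by DESeq2, with total counts, with the replicate block and with coding length in the correction, but not with transcript length. PSME2 has 6 annotated pseudogene copies. PSME3, the nuclear PA28 gamma, had values between -0.10 (PC3) and 0.13 (HCT-116) and was called in no line. In HCT-116 cells its levels were 218, 136 and 161 CPM in normoxia and 286, 138 and 191 CPM in hypoxia, which overlapped.

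Of the 7 assembly factors, 3 fell in A549 cells, 6 in HCT-116, 5 in PC3 and 1 in T47D cells, where 17.8%, 27.0%, 15.7% and 6.69% of all genes fell. PSMG3, which with PSMG4 forms a chaperone of the alpha ring, fell in all 4 lines. Its levels were 47.7, 52.2 and 39.4 CPM in the normoxic and 28.1, 32.1 and 34.6 CPM in the hypoxic A549 libraries (-0.56 ± 0.13 SE, adjusted p = 0.0059). In HCT-116 cells it went from 94.7, 128 and 75.3 CPM to 40.8, 32.4 and 31.4 CPM (-1.64 ± 0.24 SE, adjusted p = 0.000197). In PC3 cells it had the largest decrease of any member, from 41.3, 39.6 and 58.1 CPM to 23.7, 28.9 and 30.7 CPM (-0.79 ± 0.17 SE, adjusted p = 0.00802). The groups did not overlap in these lines. In T47D cells it went from 80.2, 84.9 and 59.8 CPM to 33.7, 26.6 and 47.1 CPM (-1.15 ± 0.25 SE, adjusted p = 0.013), again without overlap. PSMG3 has a high GC content (59.4%), and with the correction it remained called in all 4 lines, at -0.57, -1.63, -0.81 and -1.24, the only member to do so. An antisense gene (PSMG3-AS1) overlaps it, and it has 2 annotated pseudogene copies.

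Its partner PSMG4 fell in PC3 cells from 17.1, 13.6 and 16.2 CPM to 8.62, 10.7 and 10.3 CPM (-0.71 ± 0.14 SE, adjusted p = 0.00697) and in HCT-116 cells (-0.56), with 0.031 in A549 cells. The call in HCT-116 cells was lost by DESeq2 (adjusted p = 0.0545), with total counts and with either correction, and its value was 0.042 with transcript length, while that in PC3 cells was kept. PSMG1 and PSMG2 form the other pair of core chaperones. PSMG1 fell in A549 (-0.40), HCT-116 (-1.12) and PC3 cells (-0.54), and in T47D cells (-0.73, adjusted p = 0.0582) it was called with the replicate block (adjusted p = 0.0277), by DESeq2 and with total counts. None of the 3 calls of PSMG1 was kept with the correction. Its levels in HCT-116 cells were 109, 140.4 and 114 CPM in normoxia and 75.9, 49.3 and 56.4 CPM in hypoxia, without overlap. PSMG2 fell in HCT-116 cells, from 85.9, 111 and 68.2 CPM to 52.4, 51.0 and 49.7 CPM (-0.92 ± 0.22 SE, adjusted p = 0.00346), and in PC3 cells (-0.40), with -0.12 in A549 and -0.25 in T47D cells. Of the chaperones of the regulatory particle, PSMD9 fell in A549, HCT-116 and PC3 cells (-0.33, -0.52 and -0.33), PSMD10 (gankyrin) fell in HCT-116 cells (-1.22), and PSMD5 fell in none. With the correction, 2, 2, 3 and 1 assembly factors were called down in A549, HCT-116, PC3 and T47D cells, where 14.7%, 21.6%, 11.4% and 6.27% of all genes fell. PSMD9 kept its call in all 3 lines, while PSMG2 and PSMD10 kept none of theirs, and PSMG2 was called up in A549 cells (0.31).

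Counted by member, 4 fell in all 4 lines (PSMA3, PSMA4, PSMA5 and PSMG3), 7 in 3 lines, 13 in 2, 6 in 1 and 18 in none. Of the 44 members tested in every line, 9.09%, 15.9%, 29.5% and 13.6% fell in 4, 3, 2 and 1 lines, and of all 11734 genes tested in every line 3.36%, 7.13%, 10.0% and 16.5% did. No member was called in opposite directions. Averaged over the lines in one fit of the 24 libraries, made without the GC and length correction, 25 members fell and 3 rose. Of all genes, 21.5% fell and 26.1% rose. The 25 included all 7 alpha subunits and 6 of 7 assembly factors but 2 of 7 beta subunits. The largest mean decreases were those of PSMA5 at -1.15 ± 0.13 (SE, adjusted p = 9.4e-08), PSMA3 at -1.02 ± 0.12 (SE, adjusted p = 1.23e-07) and PSMG3 at -0.97 ± 0.11 (SE, adjusted p = 6.83e-08). The 3 with a mean increase were PSME4 at 0.43 ± 0.091 (SE, adjusted p = 0.000323), PSMF1 at 0.41 ± 0.085 (SE, adjusted p = 0.000208) and PSMD2 at 0.35 ± 0.11 (SE, adjusted p = 0.0067). Between 21 and 27 members fell when 1 replicate number was left out, where 18.9 to 21.2% of all genes fell. With total counts in place of TMM factors, 27.1% of all genes fell and 19.3% rose.

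Whether the response differed between lines was tested as the interaction of line and oxygen state, without the GC and length correction. It was called for 9 of 45 members tested, a share near the 18.3% of all genes called. The 9 were PSMA2, PSMA3, PSMA4, PSMA5 and PSMA6, with PSMB10, PSMC6, PSMD13 and PSME2. The adjusted p of PSMA5 was 0.0104, and its log2 fold changes from the line fits were -0.58, -2.29, -0.69 and -1.30 in A549, HCT-116, PC3 and T47D cells. For each of the 9 the most negative value was that of HCT-116 cells. Without the libraries numbered 1, or without those numbered 2, 0 members were called, and 12 were called without those numbered 3, where 3.94%, 1.02% and 15.3% of all genes were called.

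**Figure D4:**
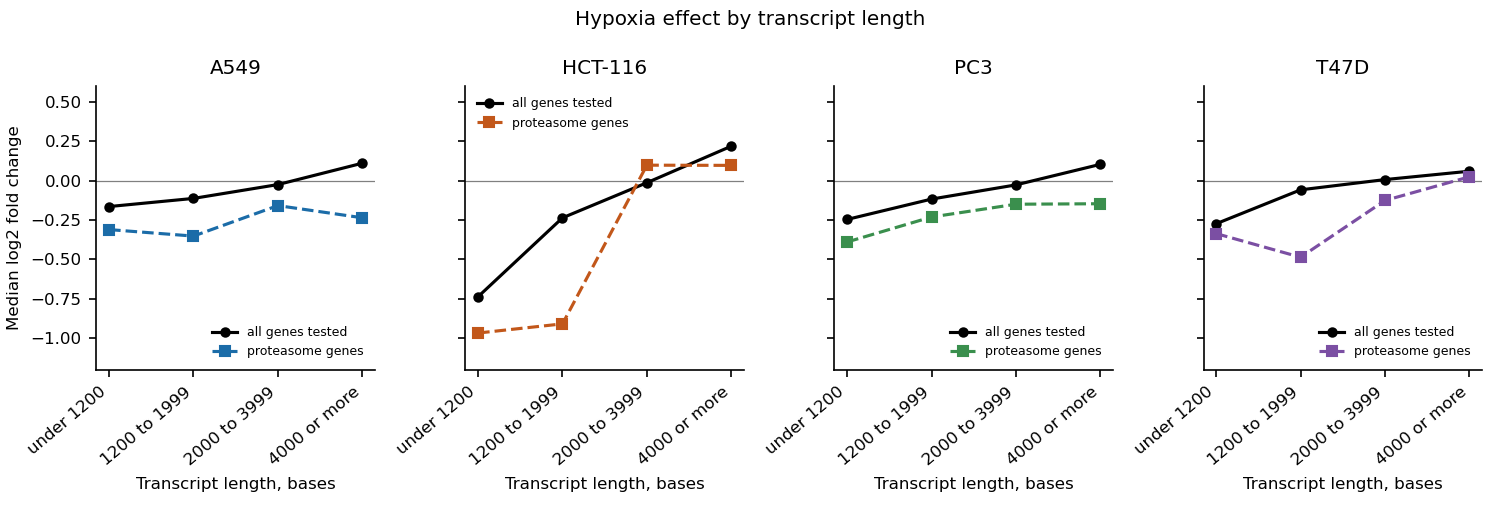
Median log2 fold change (hypoxia over normoxia) by transcript length class, for all genes tested (black circles) and for the proteasome genes of that class (coloured squares), in each line. The proteasome genes lie below all genes of the same length in A549, PC3 and T47D cells in every class, whereas in HCT-116 cells those of 2000 bases or more lie above (0.098 against -0.014 for those under 4000 bases) or below (0.096 against 0.22 for 4000 or more).

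Within classes of transcript length, the members were compared with all genes of that length. Under 1200 bases, the medians of the members and of all genes were -0.31 and -0.16 in A549 (15 members), -0.97 and -0.74 in HCT-116 (16), -0.39 and -0.25 in PC3 (15) and -0.34 and -0.27 in T47D cells (15). From 1200 up to 2000 bases, they were -0.35 and -0.11, -0.91 and -0.24, -0.23 and -0.12, and -0.49 and -0.059, with 13 members in each line. The plot of effect by length shows that the gap was largest in HCT-116 and T47D cells in the second class. In that class 8 of 13 members fell in HCT-116 cells, where 34.2% of all genes of that length fell, and 1 of 13 in T47D cells, where 9.10% fell.

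The lines also differed in their proteasome transcripts before hypoxia, in a fit made without the GC and length correction. In the 12 normoxic libraries, 27 of 44 members differed between lines with at least a 2-fold range, which is 61.4% of members against 79.9% of all genes. HCT-116 cells had the highest mean level of all 7 alpha subunits and of PSMG1 to PSMG4, not each by a called margin. PSMA4 showed the widest range, from 179 ± 46.6 CPM (SD, n = 3) in PC3 cells through 344 ± 71.0 in T47D and 396 ± 49.5 in A549 to 840.0 ± 289.9 in HCT-116 cells. Its neighbours A549 and T47D did not differ beyond their spread, at 0.20 ± 0.25 (SE, adjusted p = 0.495) on the log2 scale, and every other pair did. PSMA5 was higher in HCT-116 cells (725 ± 287 CPM) than in PC3 cells by 1.77 ± 0.30 (SE, adjusted p = 8.12e-05), and its other 3 lines lay between 180.4 and 213 CPM without a call among them. PSMB10 was also highest in HCT-116 (29.3 ± 4.73 CPM) and lowest in T47D cells (8.88 ± 1.19 CPM).

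**Figure D5:**
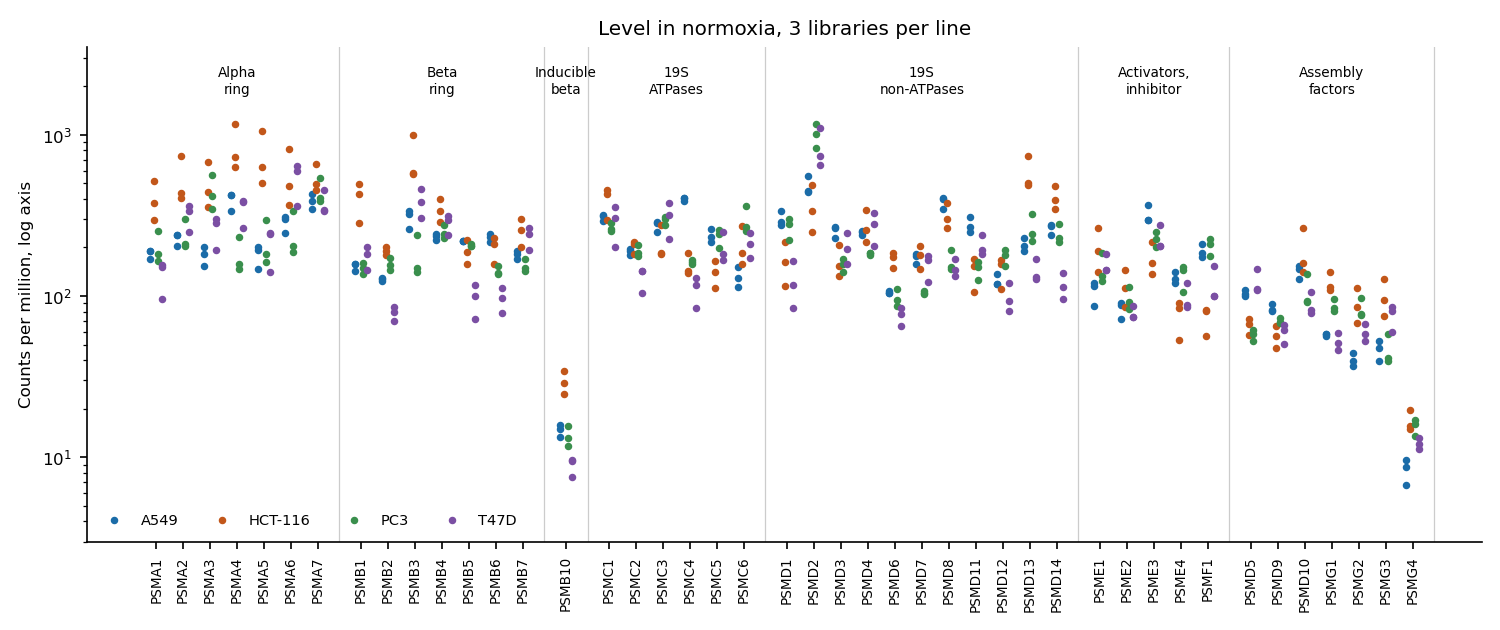
Normoxic level (TMM-scaled CPM, log axis) of each tested member in the 3 libraries of each line; levels are not divided by transcript length and are compared within a gene only. HCT-116 points are highest for PSMA4, PSMA5 and PSMB10, and T47D points lowest for PSMB5 and PSMB6.

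T47D cells had the least PSMB5 (96.1 ± 22.9 CPM) and PSMB6 (95.9 ± 16.5 CPM). PSMB5 did not differ among A549 (219 ± 0.587), PC3 (206 ± 3.77) and HCT-116 cells (189 ± 31.6) beyond their spread, and A549 exceeded T47D cells by 1.19 ± 0.19 (SE, adjusted p = 2.87e-05). PSMC4 was highest in A549 cells (401 ± 8.73 CPM), over T47D cells (109.7 ± 23.2 CPM) by 1.87 ± 0.18 (SE, adjusted p = 1.52e-07). PSMD2 was highest in PC3 (997 ± 164 CPM) and T47D cells (827 ± 239 CPM), which did not differ beyond their spread, and lowest in HCT-116 cells (358 ± 120.0 CPM). PSMF1 was lowest in HCT-116 cells (73.1 ± 14.5 CPM), against 204 ± 25.4 CPM in PC3 cells, with a log2 difference (HCT-116 minus PC3) of -1.48 ± 0.20 (SE, adjusted p = 1.03e-05), and this was the line in which it rose. Among core chaperones, PSMG1 was highest in HCT-116 cells (121 ± 17.1 CPM) and lowest in T47D cells (51.9 ± 6.52 CPM), where A549 cells (57.4 ± 1.02 CPM) did not differ from T47D cells beyond the spread.

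Genes that work with the proteasome were read from fixed lists, with values from the fits without the GC and length correction, and their counts are to be read against the shares of all genes that fell (17.8%, 27.0%, 15.7% and 6.69% in A549, HCT-116, PC3 and T47D cells) or rose (17.6%, 23.3%, 16.6% and 6.55%). Of 15 other subunits, shuttle factors and cofactors, 2 fell and 1 rose in A549 cells, 3 fell and 4 rose in HCT-116 cells, 1 fell in PC3 and 1 fell in T47D cells, which is near or below those shares in each line. POMP, the maturation factor of the core, fell in A549 (-0.40 ± 0.14 SE, adjusted p = 0.0438), HCT-116 (-1.67 ± 0.26 SE, adjusted p = 0.000293) and T47D cells (-0.89 ± 0.25 SE, adjusted p = 0.0378), and had -0.49 ± 0.17 (SE, adjusted p = 0.051) in PC3 cells. UCHL5, a deubiquitinase of the base, fell in A549 (-0.56), HCT-116 (-0.76) and PC3 cells (-0.27). ADRM1, the ubiquitin receptor that anchors it, rose in HCT-116 cells (0.67), as did the shuttle factor UBQLN2 (1.14) and the scaffold KIAA0368 (0.96).

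Genes of ubiquitin and of its activation moved in both directions. UBB, a polyubiquitin gene, fell in A549 (-0.44 ± 0.12 SE, adjusted p = 0.0168) and HCT-116 cells (-1.34 ± 0.25 SE, adjusted p = 0.000909). UBA1, the main ubiquitin-activating enzyme, rose in A549 (0.52), HCT-116 (1.55) and PC3 cells (0.39), and RPS27A, a ubiquitin-ribosomal fusion, fell in HCT-116 (-2.05) and PC3 cells (-0.69). Of 9 regulators of proteasome genes, 2 rose in A549, 5 in HCT-116, 1 in PC3 and 1 in T47D cells, and 1 fell in PC3 cells (NGLY1, which deglycosylates NFE2L1; -0.37). NFE2L1 rose in HCT-116 (1.04 ± 0.21 SE, adjusted p = 0.00136), PC3 (0.38 ± 0.11 SE, adjusted p = 0.0249) and T47D cells (0.88 ± 0.24 SE, adjusted p = 0.0346) and had 0.20 ± 0.15 (SE, adjusted p = 0.321) in A549 cells. Its levels were 169.9, 112 and 159.6 CPM in the normoxic and 337, 316 and 333 CPM in the hypoxic HCT-116 libraries. MAFF, a small partner factor, rose in A549 (0.52) and HCT-116 cells (2.24).

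Of 13 antigen presentation genes, 12 were tested in each line. In A549 cells 4 rose and 2 fell, with 3 and 2 in HCT-116, 2 and 1 in PC3, and 3 and 1 in T47D cells. B2M, the invariant chain of class I molecules, fell in HCT-116 (-2.13 ± 0.33 SE, adjusted p = 0.000257) and T47D cells (-1.17 ± 0.29 SE, adjusted p = 0.0228). NLRC5, the class I transactivator, was called in none. The HLA and TAP genes, which the counts of this list include where tested, lie in the MHC region described above and are not read further. PSMC3IP, the recombination cofactor outside the proteasome, fell in A549 (-1.04 ± 0.14 SE, adjusted p = 0.000265), HCT-116 (-0.84 ± 0.24 SE, adjusted p = 0.011) and T47D cells (-1.05 ± 0.20 SE, adjusted p = 0.00724), and had -0.26 ± 0.13 (SE, adjusted p = 0.141) in PC3 cells. Its levels in A549 cells were 20.6, 19.2 and 19.5 CPM in normoxia and 8.40, 11.1 and 9.45 CPM in hypoxia, without overlap.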

How the data were processed

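Polyadenylated RNA of 24 libraries was sequenced. The authors trimmed reads with Trim Galore 0.3.3, aligned them to GRCh37 (hg19) with HISAT2 2.05, removed fragments without a unique position with Picard 2.0.1 and deposited whole-number counts per gene from HTSeq 0.5.4p3. The strand setting of the counting was not given in the sources used here. Genes were mapped to GENCODE 44 on GRCh37 by symbol (93.4% of 23106, and all 49 members). Library totals ranged from 22698584 to 62850747 counts, so that 3 counts corresponded to 0.0477 to 0.132 CPM, and no 2 libraries held identical values.

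Each line was tested with edgeR 4.0.16 (filterByExpr, TMM, quasi-likelihood test, R 4.3.3) over all genes, with Benjamini-Hochberg adjustment over all genes tested. A gene was called where its adjusted p was below 0.05 and it changed more than 1.2-fold. One fit of 24 libraries gave the interaction of line and oxygen state and the mean effect, and a fit of the 12 normoxic libraries gave level differences, called at a fold of at least 2. Levels are TMM-scaled CPM over the 24 libraries, and their log2 values used a prior count of 2. Every printed adjusted p is from these edgeR fits or their alternatives, and from DESeq2 where it is named. Alternatives were DESeq2 1.42.0, RLE factors, total counts, no filter on low counts, a mean count of at least 50, a replicate block, one fit of all libraries, leaving out each library, and offsets from splines of GC content and transcript length (5 degrees of freedom). Offsets with coding length were added after the data were seen. Both kinds of offset were used only in the fits of single lines.

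Replicate numbers pair the samples in T47D cells, where deviations of same-numbered libraries correlated at 0.150, 0.325 and 0.302. This comes from the data, not from a label. On data simulated for A549 cells, 194 of 200 genes changed 2-fold were recovered with 6 false calls (edgeR, 13904 genes). With a simulated length trend there were 2352 false calls in A549 cells (13949 genes) and 2451 in T47D cells (14142 genes) without the correction, and 29 and 16 with it. The simulated trend followed the same transcript lengths that the correction uses, so its removal was fixed in advance. Whether the length difference in the real libraries is technical was not tested. With simulated replicate effects in T47D cells, 0 of 200 were recovered without the block and 192 with it (14156 genes). Same-numbered libraries shared these simulated effects in full, so the gain from the block was built in. In the real T47D libraries the test without the block called 922 genes up and 942 down. The members, lists and tests were chosen with earlier results of these data known. Values per library were given for the catalytic pairs, the activators, the inhibitor and PSMG1 to PSMG4 in the line of their largest change, for the 3 largest called changes in each direction and line, for members called in all lines and for the 5 smallest interaction p-values. Other genes shown were chosen after their values were seen. Single values of some genes in the lists and marker sets are not reported here.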

Additional observations from a re-analysis of the deposited data

Results flagged for a closer look

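The hypoxia effect differed between the 4 lines, by the interaction of line and oxygen state in edgeR's quasi-likelihood test, for 9 of 45 members, a share near the 18.3% of all genes called. For PSMA5 the adjusted p was 0.0104, and the log2 fold changes in A549, HCT-116, PC3 and T47D cells were -0.58, -2.29, -0.69 and -1.30. For PSMA4 the adjusted p was 0.0107, and the log2 fold changes in A549, HCT-116, PC3 and T47D cells were -0.65, -1.95, -0.48 and -0.998. For PSMA3 the adjusted p was 0.0138, and the log2 fold changes in A549, HCT-116, PC3 and T47D cells were -0.70, -2.07, -0.55 and -1.03. For PSMA6 the adjusted p was 0.0232, and the log2 fold changes in A549, HCT-116, PC3 and T47D cells were -0.52, -1.99, -0.51 and -1.05. The values of these alpha subunits were lowest in HCT-116 cells and next lowest in T47D cells. PSMA2 (0.0286) had a value of -1.54 in HCT-116 cells and values from -0.51 to -0.35 in the others. Outside the alpha ring, the adjusted p was 0.0276 for the ATPase PSMC6, 0.0312 for the inducible catalytic subunit PSMB10, 0.035 for the lid subunit PSMD13 and 0.0363 for the activator PSME2. PSMB10 and PSMD13 had -1.54 and -1.40 in HCT-116 cells, against -0.26 and -0.49 in T47D cells. With edgeR, 0 members were called without the libraries numbered 1 or without those numbered 2, and 12 without those numbered 3, with 3.94%, 1.02% and 15.3% of all genes called. The HCT-116 libraries also had the widest difference between short and long transcripts, and its part in these differences was not tested.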

How the results depend on the processing

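PSMB8, PSMA8 and PSMB11 did not pass the filter on low counts in any line, and DESeq2, fitted with no such filter, gave none of them an adjusted p. With the GC content and transcript length correction, A549 cells had 9 members down, 2 up, 1 alpha subunit down and a median of -0.11. HCT-116 cells had 14 down and a median of -0.18, PC3 cells 4 down, 0 alpha subunits down and a median of -0.030, and T47D cells 2 alpha subunits down. The same correction with the replicate block gave 10 down, 2 up, 2 alpha subunits down and a median of -0.11 in A549 cells, 15 down, 6 up and a median of -0.15 in HCT-116 cells, and 4 down, 1 up, 0 alpha subunits down and a median of -0.031 in PC3 cells, and 8 down, 3 of them alpha subunits, in T47D cells. With coding length, 22, 22, 10 and 9 members fell in A549, HCT-116, PC3 and T47D cells, 4 alpha subunits fell in A549 cells, the median was -0.46 in HCT-116 cells, and in PC3 cells 0 alpha subunits fell with a median of -0.20. One fit of 24 libraries called 6 members down (2 alpha) and 0 up in A549 cells, 7 up with a median of -0.60 in HCT-116 cells, 2 down (0 alpha) with a median of -0.18 in PC3 cells and 12 down in T47D cells. Of all genes, that fit called 7.35%, 22.9%, 2.64% and 9.94% down and 8.87%, 27.1%, 5.39% and 13.9% up in the 4 lines. Rises in HCT-116 cells were 4 with DESeq2, RLE factors, no filter or a mean count of at least 50, and in PC3 cells 2 with DESeq2 and 1 with no filter. DESeq2 called 10 members down in T47D cells. Total counts gave 31 members down and a median of -0.45 in A549 cells, 21 down and a median of -0.27 in PC3 cells and 11 down in T47D cells. The shares of all genes down with total counts were 24.9%, 18.9% and 10.0% in these lines. The replicate block gave 4 rises in HCT-116 and 2 in PC3 cells, PSME4 among both with PSMD1 and PSMD2 respectively. It called PSMB9 down in HCT-116 cells (adjusted p = 0.0136) and PSMA2 and PSME2 down in PC3 cells, with 22, 28, 15 and 8 members down in A549, HCT-116, PC3 and T47D cells. In A549, HCT-116 and PC3 cells the same-numbered correlations were not all above 0.1, and the samples were not taken as paired. In HCT-116 and PC3 cells, but not in A549 cells, each hypoxic library correlated best with its own number. Over the 24 libraries the block left the counts at 9, 3 and 25. In A549 cells, leaving out each library in turn gave 11 to 24 members down, 1 up, 4 to 7 alpha subunits down and a median of -0.38 to -0.25. In HCT-116 cells, leaving out each library in turn gave 18 to 26 members down, 1 to 4 up, 7 alpha subunits down and a median of -0.81 to -0.58. In PC3 cells, leaving out each library in turn gave 3 to 22 members down, 0 to 2 up, 0 to 6 alpha subunits down and a median of -0.32 to -0.17. In T47D cells, leaving out each library in turn gave 0 to 19 members down, 0 up, 0 to 7 alpha subunits down and a median of -0.54 to -0.15. Leaving out each replicate number gave 0 to 12 members for the interaction, 21 to 27 down and 2 to 5 up for the mean effect, and 20 to 31 for the normoxic level, where the shares of all genes were 1.02 to 15.3%, 18.9 to 21.2%, 18.7 to 27.1% and 76.0 to 81.0%. Over 28 values of 10 members (PSMA3 to PSMA6, PSMC6, PSMD2, PSME4, PSMF1, PSMG3 and, in PC3 cells only, PSMG4) across settings, 367 stayed on their side of the threshold, 72 lost and 9 gained significance, and none changed direction. These values were picked as the largest called changes in a line, for calls in all lines or for the smallest interaction p-values. The tally therefore does not describe the members as a whole. The HCT-116 value of PSMG4, which was positive with transcript length in the correction, was not among these values. Over all members, 40 calls were lost and 5 gained with the GC content and transcript length correction, 1 was lost and 14 gained by DESeq2, 3 and 21 with total counts, and 19 and 14 with coding length. The causes of these shifts were not tested.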
